A study of Mus musculus with 4 samples.

Results

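The border myocardium of the day 4 heart section was compared with its remote myocardium, both chosen from the spots' own mRNA. A spot is a printed patch of the slide that collects RNA from the small group of cells lying above it. Of the 9102 spots deposited for the 4 sections, 2026 were from day 4, and 1674 of these had at least 500 UMIs (unique molecular identifiers, each counting a single captured mRNA) and no more than 1% of them from hemoglobin genes. The 201 spots with the highest share of the collagen genes Col1a1, Col1a2 and Col3a1 were left out, and the other 1473 were ranked by the summed share of Ankrd1, Flnc, Xirp2 and Nppb. The top 15%, 221 spots, are called border spots here, and the bottom 50%, 736 spots, are called low-marker spots. The last border spot had 48.53 marker UMIs per 10000 and the first spot below it 48.47, so the limit falls in a continuous range. At the other limit the values were 13.149 inside and 13.151 outside the low-marker group, and the collagen limit fell between 341.3 and 342.6 collagen UMIs per 10000.

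The mice were adult ICR animals, 12 weeks old at surgery and female according to the methods, in which the left anterior descending (LAD) coronary artery had been tied off for good. Hearts were frozen on days 1, 4, 7 and 14 after ligation, and 1 section of 10 µm from 1 mouse per day was placed on a Visium slide. No uninjured heart was part of the series, so low-marker spots are tissue of the same infarcted heart and not a healthy control. With 1 mouse there are no replicates, spots of 1 section are not replicates of each other, and no test was run. Every value below describes this section, and all genes come from the same counts that chose the spots. Intervals are exact 95% intervals and cover counting error only.

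The border zone is the muscle that survives next to an infarct. Its cardiomyocytes are known to switch on natriuretic peptides and contractile genes of the fetal heart and to use less fatty acid, while fibroblasts and macrophages from the healing infarct reach in between them. Ankrd1 is a stretch-responsive protein of the sarcomere and nucleus, Flnc (filamin C) and Xirp2 bind actin at Z-discs and intercalated discs, and Nppb encodes brain natriuretic peptide. Spot positions were not used, so it was not checked that the border spots lie next to the scar.

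Depth was similar in the groups. Border spots had a median of 8828 UMIs (range 1535 to 16546) and 1969001 in all, and low-marker spots had a median of 9468.5 (range 507 to 20521) and 6814720 in all. The day 4 section as a whole had 15572491 UMIs, and the 4 sections had between 10983077 and 17315715. Of the 2026 barcodes of day 4, 1647, 1572 and 1895 also occurred on days 1, 7 and 14, as barcodes name positions on a slide. The median marker share was 60.1 UMIs per 10000 in border spots (range 48.5 to 112.7) and 7.36 in low-marker spots. Ankrd1 supplied 69.6% of the marker UMIs in border spots and Nppb 19.6%, with 6.10% from Xirp2 and 4.65% from Flnc. Ranked by Ankrd1 alone, 176 of the 221 border spots would still be in the top 15%, and 154 by Nppb, 103 by Xirp2 and 89 by Flnc alone.

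The share of 8 cardiomyocyte genes set the groups apart. The summed share of 8 genes of working cardiomyocytes (Myh6, Myl2, Mb, Fabp3, Atp2a2, Ckmt2, Cox6a2 and Tnni3) had a median of 2.50% in border spots (range 0.58 to 6.13), 6.16% in low-marker spots and 0.342% in the collagen-rich spots left out. The border median was 40.6% of the low-marker median, and 109 of the 221 border spots lay under 40% of it. The median share of the 3 collagen genes was 1.10% in border and 0.0838% in low-marker spots. In bulk spots, fewer cardiomyocytes and less of these mRNAs per cardiomyocyte cannot be told apart. Not all cardiomyocyte genes were at least 1.5-fold lower, and how many were depended on the scaling, as given below. Of 16 tested adult sarcomere genes, which include Myh6, Myl2 and Tnni3, 4 were at least 1.5-fold lower in border spots, 1 higher and 11 neither.

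Part of the low-marker group went against its name. In 93 of the 736 spots (12.6%), the 8 cardiomyocyte genes also made up less than 40% of the group median, at a median of 0.267%, and the collagen genes had a median share of 2.72%. These myocyte-poor spots, defined after their values had been seen, were shallower, at a median of 5396 UMIs, and held 7.48% of the low-marker UMIs. Their median share of mitochondrially encoded transcripts was 2.84%, beside 2.48% in the collagen-rich spots and 37.9% in the rest of the group. The other 643 spots had a cardiomyocyte share of at least 3.23% and are called low-marker myocardium. Each comparison is therefore given against all 736 low-marker spots and, where it matters, against the 643. The limit was not applied to the border spots, of which 109 lay under it. Ratios against the 643 thus set unfiltered border spots beside filtered ones, which widens the difference in the share of the 8 cardiomyocyte genes. The plot of marker share against cardiomyocyte share shows these classes.

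**Figure D1:**
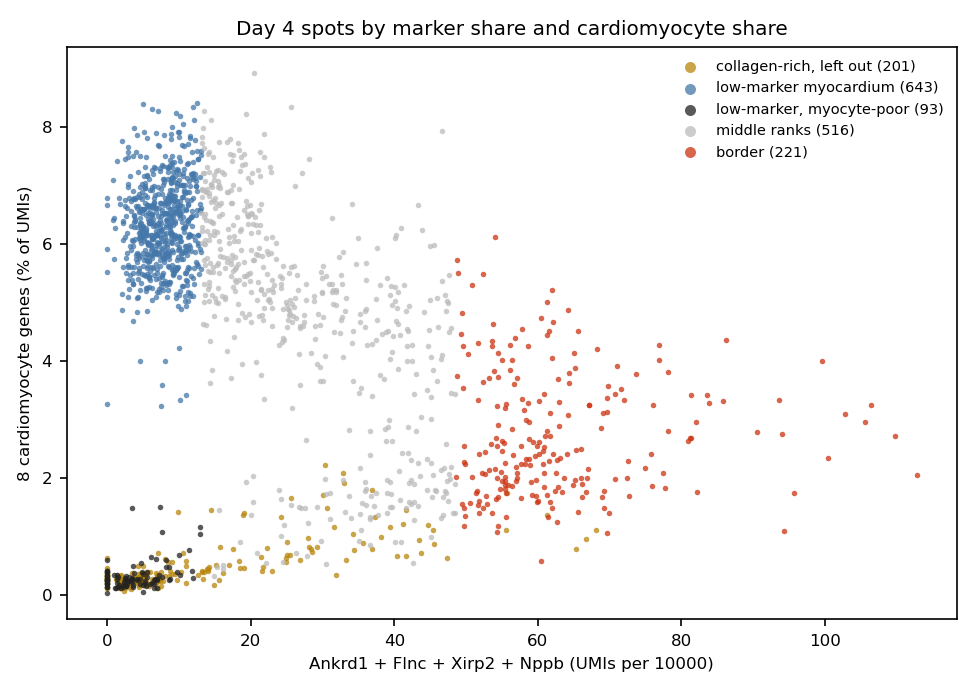
Day 4 spots by the summed share of the 4 marker genes (horizontal axis, UMIs per 10000) and of 8 cardiomyocyte genes (vertical axis, % of UMIs), 1 point per spot, colored by class with the number of spots in brackets. Border spots start at 48.5 on the horizontal axis and have a median cardiomyocyte share of 2.50%, and the 93 myocyte-poor spots lie apart from the rest of the low-marker group, none of them above 1.51%.

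Across 4762 genes with at least 1000 UMIs in the series, the 7 genes of the rule left out, 1592 (33.4%) were at least 1.5-fold higher in border than in low-marker spots and 367 (7.71%) at least 1.5-fold lower. At 2-fold these counts were 616 (12.9%) and 127 (2.67%). Levels are given as CPM, the UMIs of a gene per 1000000 UMIs of all the spots in a class together, and differences are log2 ratios of CPM. The median log2 ratio of all genes was 0.38. Much of this excess of higher genes depended on the scaling. Mitochondrially encoded transcripts took a median of 22.1% of the UMIs in border spots and 37.9% in low-marker myocardium. Calls were 81.3% higher ones as given, 59.7% with mitochondrially encoded genes left out of the totals, and 31.9% with TMM factors, which lowered every ratio by 0.51 and gave 478 higher and 1020 lower genes. DESeq2 size factors gave 31.3%. A gene group is therefore best read against the median of 0.38, and its counts against the 33.4% higher and 7.71% lower over all genes. Counts with TMM factors are to be read against the 10% higher and 21.4% lower that these gave over all genes. Without the myocyte-poor spots, 2104 genes (44.2%) were higher and 422 (8.86%) lower, with a median of 0.49. Of the calls, 1582 higher and 358 lower genes were shared by both versions.

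Only 5 genes were called lower against all low-marker spots and higher against low-marker myocardium, and they are named here after their values had been seen. They were the secreted phosphoprotein Spp1 (-1.78 and 2.56), the arginine-degrading enzyme Arg1 (-1.66 and 2.49), the macrophage glycoprotein Gpnmb (-0.76 and 2.21), the acute phase gene Saa3 (-1.04 and 1.22) and the neutrophil gene S100a9 (-0.64 and 0.59). All are genes of macrophages, neutrophils or injured tissue. The sign of Spp1, Arg1 and Gpnmb depended on the 93 myocyte-poor spots. Saa3 and S100a9 had 8 UMIs each in border spots, and their intervals held 0 in each comparison. These were -2.32 to 0.03 and -0.30 to 2.67 for Saa3, and -1.94 to 0.47 and -0.83 to 1.88 for S100a9.

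Nppa encodes atrial natriuretic peptide and is low in adult ventricular muscle. Among genes with at least 200 UMIs in both groups together, it had the largest ratio against all low-marker spots. Against low-marker myocardium it was at 5.75, after the matrix genes Cilp (6.24) and Tnc (6.22). The level of Nppa was 25762 CPM (25538 to 25987) in border spots, 599 (581 to 618) in low-marker spots and 480 in low-marker myocardium. Against all low-marker spots this was a log2 ratio of 5.43 (5.38 to 5.47), or 43.0-fold. In single spots it ranged from 15.6 to 601 per 10000 UMIs with a median of 234 in the border, and from 0 to 124 with a median of 3.79 in low-marker myocardium. No spot of low-marker myocardium reached the lower quartile of the border spots (167), and every border spot lay above the upper quartile of low-marker myocardium (5.81). Nppa starts at chr4:148000722 of GRCm38 on the plus strand, a short way downstream of Nppb, the peptide gene used by the rule (chr4:147985788-147987205). Nppb itself was at 1240 and 51.9 CPM, which the rule selected for. Atrial and conduction markers stayed near 0, with 74 UMIs over 9 genes in all border spots and none of Sln, Bmp10 or Myl7.

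Among the processing enzymes and receptors of these peptides the differences were smaller. Corin, the protease that cleaves the Nppa precursor, was at 55.9 CPM in the border and 94.2 in low-marker spots (log2 ratio -0.75, -1.06 to -0.46). Furin, a general protein convertase, was at 78.2 and 43.4 (0.85), and the receptor Npr2 at 31.0 and 18.6 (0.73, 0.27 to 1.18). The receptors Npr1 and Npr3 were below the count minimum.

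Of 7 border-zone genes that the rule did not use, 6 were at least 1.5-fold higher and none lower, with a median of 3.90. Against low-marker myocardium the counts were the same and the median was 4.08. Over all genes 33.4% and 44.2% were higher in these 2 comparisons. The paper names Nppa and Clu, along with Ankrd1 of the rule, as border zone markers of these same sections, so they are no independent check. Acta1, the skeletal alpha-actin of the fetal heart, was at 2399 CPM in the border and 83.2 in low-marker spots (4.85, 4.72 to 4.98). Its spot median was 17.2 per 10000 in the border and 0 in low-marker myocardium. Clu (clusterin, a secreted chaperone) was at 8175 and 547 CPM (3.90), and Myh7, the slow beta myosin heavy chain, at 2009 and 312 (2.69, 2.61 to 2.77). Sprr1a, a small proline-rich stress protein, was at 187 and 8.95 CPM (4.38), and the actin-binding Xirp1 at 175 and 80.9 (1.11). Csrp3, a Z-disc LIM protein, was the exception, at 1509 and 1379 CPM (0.13, 0.07 to 0.19), and its spots overlapped widely, with medians of 13.6 per 10000 in the border and 14.4 in low-marker myocardium. Sprr1a was sparse, and after thinning every spot to 3000 UMIs it was seen in 33.3% of border spots and 1.75% of those of low-marker myocardium (216 of 221 and 630 of 643 spots were deep enough), against 53.4% and 4.67% without thinning.

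The promoters of 4 genes higher in the border, 2 that chose the border spots and 2 that were measured in them, were picked because they hold a match and are printed to show which elements the 250 bases before their RefSeq start hold. Sequences are those of RefSeq on GRCm38.p6, 5′ to 3′ on the gene's own strand. Capitals mark each match of CATTCC or its reverse complement GGAATG, the core bound by TEAD factors, in the first 3, and each match of TGANTCA, the AP-1 core, in the last. They lie at chr4:147985650-147985899 (plus strand) for Nppb, chr19:36119845-36120094 (minus) for Ankrd1, chr8:123894776-123895025 (minus) for Acta1 and chr3:92485882-92486131 (minus) for Sprr1a.
Nppb: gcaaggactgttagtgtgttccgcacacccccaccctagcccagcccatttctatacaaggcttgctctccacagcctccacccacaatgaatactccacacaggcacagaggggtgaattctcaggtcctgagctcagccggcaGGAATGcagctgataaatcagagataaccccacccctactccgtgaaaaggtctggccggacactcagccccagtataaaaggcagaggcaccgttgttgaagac
Ankrd1: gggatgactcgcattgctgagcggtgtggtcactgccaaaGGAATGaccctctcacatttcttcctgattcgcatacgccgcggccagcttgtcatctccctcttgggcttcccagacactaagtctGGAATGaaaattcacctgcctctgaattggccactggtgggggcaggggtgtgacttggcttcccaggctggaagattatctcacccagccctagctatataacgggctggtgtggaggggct
Acta1: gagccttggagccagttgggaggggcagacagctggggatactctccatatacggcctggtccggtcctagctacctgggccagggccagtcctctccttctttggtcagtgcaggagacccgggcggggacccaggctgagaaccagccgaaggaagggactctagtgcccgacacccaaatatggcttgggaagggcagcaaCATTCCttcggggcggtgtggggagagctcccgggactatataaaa
Sprr1a: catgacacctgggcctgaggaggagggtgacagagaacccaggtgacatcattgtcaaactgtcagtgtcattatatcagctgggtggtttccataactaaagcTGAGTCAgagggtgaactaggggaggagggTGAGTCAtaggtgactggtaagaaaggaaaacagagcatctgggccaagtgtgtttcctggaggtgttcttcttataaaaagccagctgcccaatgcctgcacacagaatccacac
The match in Nppb begins 105 bases before the RefSeq start, which lies downstream of the start in GENCODE given above, so that it falls inside the GENCODE gene. The Ankrd1 window and its matches also lie inside the GENCODE gene (chr19:36111961-36120099, minus strand). The matches are counted from RefSeq starts throughout, with those in Ankrd1 at 210 and 123 bases, that in Acta1 at 46 bases and those in Sprr1a at 146 and 116 bases. Searched on both strands, CATTCC occurred in 12.6% of 32851 promoter windows of this length and TGANTCA in 6.75%. Of the 12 genes with the highest ratio among those with at least 200 UMIs, 9 had a promoter in the table, of which Acta1 and Thbs4 held CATTCC and Sprr1a held TGANTCA, while Nppa held neither. Of the 12 with the lowest ratio, 7 had one and none held either. Among the 4 markers of the rule, CATTCC was found in Ankrd1, Flnc and Nppb and TGANTCA in Xirp2. A match describes letters only, and no binding was measured.

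**Figure D2:**
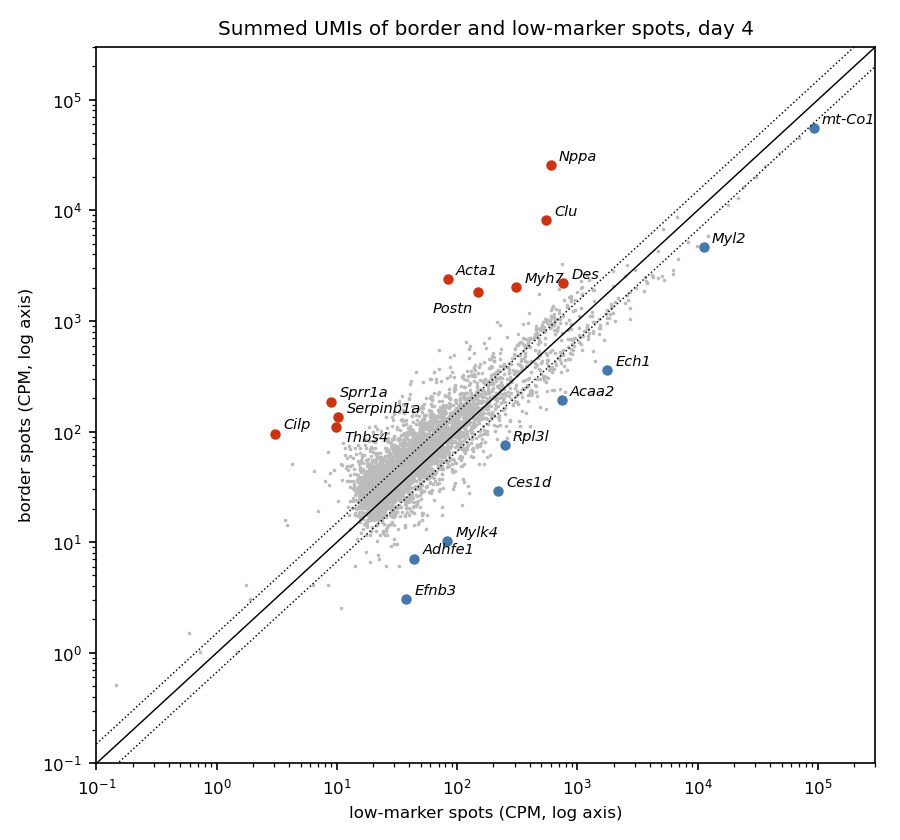
Level of each gene in border spots (vertical axis) against low-marker spots (horizontal axis) on day 4, both as CPM of summed UMIs on log axes, 1 point per gene, with lines at equal level and at 1.5-fold either way. Nppa (25762 and 599 CPM) and Acta1 lie far above the line, and Efnb3 (3.05 and 37.4 CPM), Ces1d and Ech1 lie below it.

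Contractile genes differed by list. Of 9 tested fetal and smooth muscle contractile genes, all 9 were higher, beside 33.4% over all genes (median 1.34, and 2.32 against low-marker myocardium). Among them were Myl9 (191 and 62.2 CPM, 1.62) and the nonmuscle myosin Myh9 (155 and 60.2, 1.36). Against collagen-rich spots 7 of the 9 were lower in the border, and 2, Acta1 and Myh7, were higher (median -1.45). Over all genes 37.9% were lower and 18.6% higher in that comparison. Of 16 adult sarcomere genes, 1 was higher and 4 were lower, with a median of -0.20. In all, 13 of the 16 lay below the all-gene median of 0.38. With TMM factors 11 were lower and none higher (median -0.71), beside 21.4% lower and 10% higher over all genes. The ventricular myosin light chains Myl2 (4674 and 11219 CPM, -1.26) and Myl3 (-1.10), cardiac troponin I Tnni3 (-1.24) and the alpha myosin heavy chain Myh6 (4772 and 9880, -1.05) were lower. With the totals as given, most other sarcomere genes were within 1.5-fold, including cardiac troponin T Tnnt2 (-0.11), troponin C Tnnc1 (0.03), cardiac actin Actc1 (0.39) and titin (Ttn, -0.22). The myosin-binding protein Mybpc3 was higher (0.89). The 2 cardiac myosin heavy chains lie side by side on chr14 (Myh6 at 54941921-54966927 and Myh7 at 54970684-54994626, minus strand) and differed in opposite directions. The deposited counts do not show how reads from stretches that the 2 transcripts share were assigned.

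Z-disc and stretch genes are a group close to the markers of the rule. Of 28 tested members 15 were higher and 1 lower (median 0.74), beside 33.4% and 7.71% over all genes. Synpo2l (198 and 39.9 CPM, 2.31), the LIM proteins Fhl1 (387 and 87.8, 2.14) and Pdlim3 (51.3 and 15.3, 1.75) and desmin, the intermediate filament of the Z-disc (Des, 2207 and 758, 1.54), had the largest ratios. Tcap, which caps titin at the Z-disc, was the member called lower (768 and 1520 CPM, -0.99), and Actn2, the main Z-disc actinin, was close to equal (0.08). With TMM factors 12 were higher and 5 lower, beside 10% and 21.4% over all genes.

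Genes that burn fatty acids were lower as a group. Of 32 tested fatty acid uptake and oxidation genes, 26 were at least 1.5-fold lower and none higher (median -1.15), against 7.71% lower over all genes. The summed level of the list was 9244 CPM in border and 20766 in low-marker spots. The share of the 8 cardiomyocyte genes, which include Fabp3 of this list, had medians of 2.50% and 6.16%. How far these ratios and those of the other mitochondrial groups went with that share was not tested. Ech1, an isomerase of unsaturated fatty acid oxidation, was at 360 CPM in the border and 1763 in low-marker spots (-2.29, -2.40 to -2.18). Its spot medians were 3.13 and 18.5 per 10000 in the border and in low-marker myocardium, and 220 of the 221 border spots lay below the lower quartile of the latter. Eci1 (92.9 and 358 CPM, -1.94) and the thiolase Acaa2 (193 and 739, -1.94) catalyze other steps of the same pathway, and Pdk4, which blocks pyruvate dehydrogenase, was at 32.0 and 123 (-1.94). Cpt1a, the liver-type carnitine transferase, was not lower (0.38), while the muscle form Cpt1b was (-0.74). The median of this list stayed below 0 under every other setting tried (-1.67 to -0.17), and without the myocyte-poor spots 27 were lower and 2 higher.

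The other mitochondrial groups were lower with smaller ratios. Their counts stand beside 33.4% higher and 7.71% lower over all genes. Citrate cycle and pyruvate dehydrogenase genes had 19 of 25 lower and none higher (median -0.80), led by the NADP-dependent Idh2 (431 and 1391 CPM, -1.69). Genes of branched-chain amino acid breakdown had 14 of 22 lower and none higher (-0.88), with Acat1 at 113 and 335 CPM (-1.57). Nuclear-encoded respiratory chain genes had 36 of 74 lower and 1 higher (-0.57), and the largest ratio was that of the heart and muscle isoform Cox7a1 (1038 and 2757 CPM, -1.41). The member called higher was Cox6a1 (0.66), the general form of a subunit, and its muscle form Cox6a2 was lower (2568 and 5063 CPM, -0.98). Of 12 mitochondrially encoded transcripts 8 were lower and none higher (-0.61), mt-Co1 being at 55787 and 92107 CPM (-0.72). Under TMM factors 72 of the 74 nuclear genes and all 12 mitochondrial ones were lower, beside 21.4% over all genes.

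Energy and ribosome genes had members in both directions, and the isoforms set side by side here were picked after their values had been seen. The muscle creatine kinases Ckm (1000 and 2040 CPM, -1.03) and Ckmt2 (-0.87) were lower, and the brain form Ckb was higher (144 and 59.7, 1.27). Creatine and high-energy phosphate genes as a list had 2 of 9 higher and 4 lower (median -0.52). In glycolysis, muscle enolase Eno3 was lower (544 and 1084 CPM, -1.0), and Eno1 (0.90), the platelet phosphofructokinase Pfkp (138 and 42.4 CPM, 1.70) and glucose transporter 1 (Slc2a1, 0.83) were higher, with 6 of 20 higher, 4 lower and a median of 0.27, close to that of all genes. The muscle ribosomal protein Rpl3l was at 75.7 and 248 CPM (-1.71), and its general counterpart Rpl3 at 400 and 142 (1.5). Of 84 ribosomal genes 64 were higher and 1, Rpl3l, lower (median 0.71), beside 33.4% higher over all genes. With TMM factors only 3 ribosomal genes were higher, beside 10% over all genes. This list was made by symbol and also holds the kinase Rps6ka3.

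The remaining genes with the lowest ratios were of mixed function. Efnb3, an ephrin ligand, had 6 UMIs in border and 255 in low-marker spots (3.05 and 37.4 CPM, -3.62, -5.08 to -2.48). The kinase Mylk4 (10.2 and 82.8 CPM, -3.03) and the carboxylesterase Ces1d (29.0 and 218, -2.91) followed, and then Adhfe1, Lgals4, Ttll1, Ano10, Gstk1 and Timp4, between -2.63 and -2.06. Timp4 is the metalloproteinase inhibitor of resting heart muscle. After thinning to 3000 UMIs, Ces1d was seen in 9.72% of border spots (6.12 to 14.5) and 49.0% of low-marker myocardium (45.1 to 53.0), and without thinning in 19.9% and 85.4%.

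Calcium handling, ion channel and intercalated disc genes differed member by member. Their counts stand beside 33.4% higher and 7.71% lower over all genes. The sarcoplasmic calcium pump Atp2a2 was at 3625 and 6923 CPM (-0.93), its inhibitor phospholamban (Pln) at 2304 and 3753 (-0.70) and the histidine-rich calcium-binding protein Hrc at 240 and 611 (-1.35). In all, 4 of 16 calcium genes were lower and 1 higher, the sodium-calcium exchanger Slc8a1 (0.62). Among 17 ion channel genes 8 were lower and 3 higher. The potassium channels Kcnj3 (6.09 and 25.7 CPM, -2.08) and Kcnj2 (-1.54) were lower, both at few UMIs (12 and 15 in the border), whereas the potassium channel Kcnq1 (0.92) and the sodium pump subunit Atp1b1 (406 and 153 CPM, 1.40) were among those higher. Of 14 intercalated disc genes 7 were higher and 1, desmoglein Dsg2 (-0.98), lower (median 0.59). Without the myocyte-poor spots the disc median was 0.49, as was that of all genes. The gap junction gene Gja1 was at 344 and 218 CPM (0.66) and the cadherin Cdh2 at 230 and 144 (0.68). With TMM factors no calcium or disc gene was called higher, beside 10% over all genes.

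**Figure D3:**
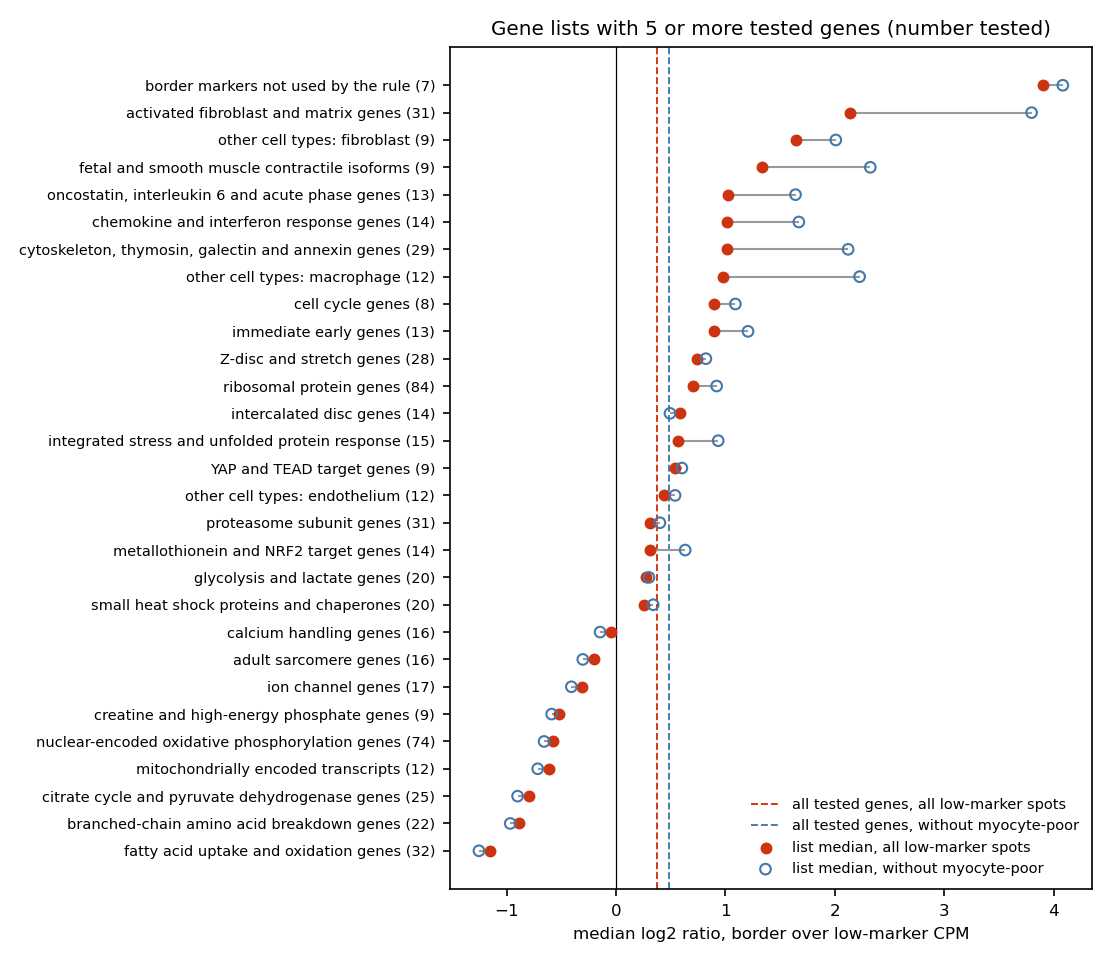
Median log2 ratio of CPM, border over low-marker spots, for each gene list with 5 or more tested genes (number tested in brackets), against all low-marker spots (filled points) and without the myocyte-poor ones (open points). Dashed lines give the medians of all tested genes, 0.38 and 0.49, and fatty acid oxidation (-1.15) and matrix genes (2.13 and 3.80) lie near the ends.

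Matrix and connective tissue genes formed the other large group of higher genes. Of 31 activated fibroblast and matrix genes, 29 were higher and 1, Spp1, lower (median 2.13), and against low-marker myocardium all 31 were higher (3.80). This list is close to the collagen genes that the rule removed spots by, and the collagen share moved with the marker rank, so its part in each ratio was not tested. Cilp, a secreted cartilage-type matrix protein, was at 96.0 and 3.08 CPM (4.96, 4.31 to 5.69), periostin (Postn), which activated fibroblasts secrete, at 1815 and 150 (3.60), and the thrombospondin Thbs4 at 110 and 9.83 (3.48). Col8a1 (2.94), Mfap5 (2.95), Aspn (2.79), the fibroblast gene Pi16 (2.82) and the protease inhibitor Serpinb1a (3.73) completed the 12 highest. Resting fibroblast genes had 8 of 9 higher (1.64), the exception being gelsolin (Gsn, -1.3), which cuts actin filaments. Timp1, an inhibitor of metalloproteinases that the study names for these sections, was at 610 CPM in the border, 323 in low-marker spots and 2809 in collagen-rich spots (0.92, 0.81 to 1.02). As 88.4% of its low-marker UMIs came from the 93 myocyte-poor spots, it was at 40.4 CPM in low-marker myocardium, and the ratio was then 3.91. Lrp1, which the study predicts as the receptor of Timp1, was at 263 and 125 CPM (1.08), and 1.83 against low-marker myocardium.

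Immune cell genes were present in the border at moderate levels. Macrophage markers had 10 of 12 higher and 1, Gpnmb, lower (median 0.98), beside 33.4% higher and 7.71% lower over all genes. Against low-marker myocardium 12 of 12 were higher (2.23), beside 44.2%. With TMM factors 5 macrophage markers were higher and 1 lower, beside 10% and 21.4% over all genes. The complement genes C1qa (121 and 43.0 CPM, 1.49) and C1qb (264 and 96.0, 1.46) had the largest ratios. Their summed level was 2837 CPM in border, 557 in low-marker myocardium and 9993 in collagen-rich spots. Chemokine and interferon genes had 9 of 14 higher and none lower (1.02), with the monocyte chemokine Ccl8 at 112 and 28.9 CPM (1.95). With TMM factors 5 of these 14 were higher and 2 lower. Endothelial genes had 2 of 12 higher, beside 33.4% over all genes, and 1 lower (0.44), the water channel Aqp1 (-1.12). Smooth muscle and pericyte genes had 2 of 4 higher, Pdgfrb (0.79) and Rgs5 (0.69). Markers of other cells were near 0 in border spots, with 45 UMIs over 9 neutrophil genes, 19 over 6 adipocyte genes, 16 over 7 mesothelial genes, 12 over 8 lymphocyte genes and 40 over 5 nerve sheath genes.

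Lists of stress and growth genes differed among themselves. Of 13 immediate early genes 11 were higher and none lower (median 0.89), with Btg2 at 53.8 and 15.1 CPM (1.83) and Junb, an AP-1 subunit, at 46.2 and 15.6 (1.57). Of 13 oncostatin, interleukin 6 and acute phase genes 10 were higher and 1 lower (1.03), with the fibrinogen-like Fgl2 at 71.6 and 11.7 CPM (2.61) and Serpina3n at 136 and 25.8 (2.39). Cytoskeleton and annexin genes had 25 of 29 higher and none lower (1.01), among them vimentin (Vim, 941 and 350 CPM, 1.43) and nestin (Nes, 1.73). Against collagen-rich spots, 27 of these 29 genes were at least 1.5-fold lower in the border and none higher (median -1.34). Over all genes, 37.9% were lower and 18.6% higher in that comparison, and the counts against collagen-rich spots below stand beside these shares. In that comparison 8 of the 13 oncostatin, interleukin 6 and acute phase genes were lower and 2 higher. Of the 13 immediate early genes 5 were lower, near the share over all genes, and 1 higher. Of 9 tested genes of a YAP and TEAD list, 4 were higher and none lower (0.54, and 0.032 with TMM factors), beside 33.4% higher over all genes. The full list holds targets and also the regulators Yap1, Tead1 and Wwtr1. Its members Ccn2 (985 and 213 CPM, 2.21) and Ccn1 (1.45) had the largest ratios. Small heat shock proteins and chaperones (4 of 20 higher, 1 lower, median 0.26), proteasome subunits (3 of 31, none lower, 0.31) and metallothionein and NRF2 genes (4 of 14, 1 lower, 0.31) lay close to the all-gene median, and their medians were below 0 with TMM factors, as did those of glycolysis and endothelium. In these lists Hspb1 (630 and 326 CPM, 0.95) and the metallothionein Mt2 (284 and 73.7, 1.95) had the largest ratios upward. Of 23 cell cycle genes 8 passed the count minimum, and 5 of these were higher and 1, Cenpf (-1.62), lower (median 0.90). Unfolded protein response genes had 7 of 15 higher and 1 lower (0.57). Both counts stand beside the 33.4% higher over all genes. With TMM factors 2 cell cycle genes and no unfolded protein response gene were called higher, beside 10% over all genes. Against collagen-rich spots, 14 of the 15 unfolded protein response genes were lower in the border and 1 higher (median -1.34). Of the 8 cell cycle genes 7 were lower there and none higher.

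The collagen-rich spots left out by the rule were set beside border spots and low-marker myocardium, to see in which class a gene was highest. These classes were chosen by expression, not by position, and the myocyte-poor spots were not among them. Border spots were at least 1.5-fold higher than collagen-rich spots for 886 genes (18.6%) and lower for 1804 (37.9%). Of the genes higher in the border than in low-marker myocardium, 1295 were higher still in the collagen-rich spots, 717 were within 1.5-fold of them and 91 (1.91% of all tested) were highest in the border. These 91 included Nppa (4923 CPM in collagen-rich spots, log2 ratio 2.39), Acta1 (491 CPM, 2.29), Myh7 (359 CPM, 2.48), Clu (3706 CPM, 1.14), Synpo2l (1.53), Fhl1 (1.15), Des (1.21), Xirp1 (1.32) and Atp1b1 (1.38). The matrix genes Thbs4 (30.4 CPM, 1.85) and Cilp (51.5 CPM, 0.90) and the fibroblast gene Pi16 (36.3 CPM, 1.12) were also among them, so that 6 of the 12 highest genes peaked in the border. Postn (3353 CPM, -0.89), Sprr1a (251 CPM, -0.42) and Serpinb1a (197 CPM, -0.54) did not. Of the genes lower in the border than in low-marker myocardium, 325 were lower still in collagen-rich spots, such as Myh6 (764 CPM) and Ech1 (159 CPM). Another 7 were lowest in the border, including Lgals4, Cenpf, Fdft1, Atxn2 and Timm21, all at few UMIs. Against collagen-rich spots the interval of Cenpf held 0 (18 and 17 UMIs, -1.69 to 0.40). That of Lgals4 (12 and 18 UMIs) was -2.50 to -0.18.

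**Figure D4:**
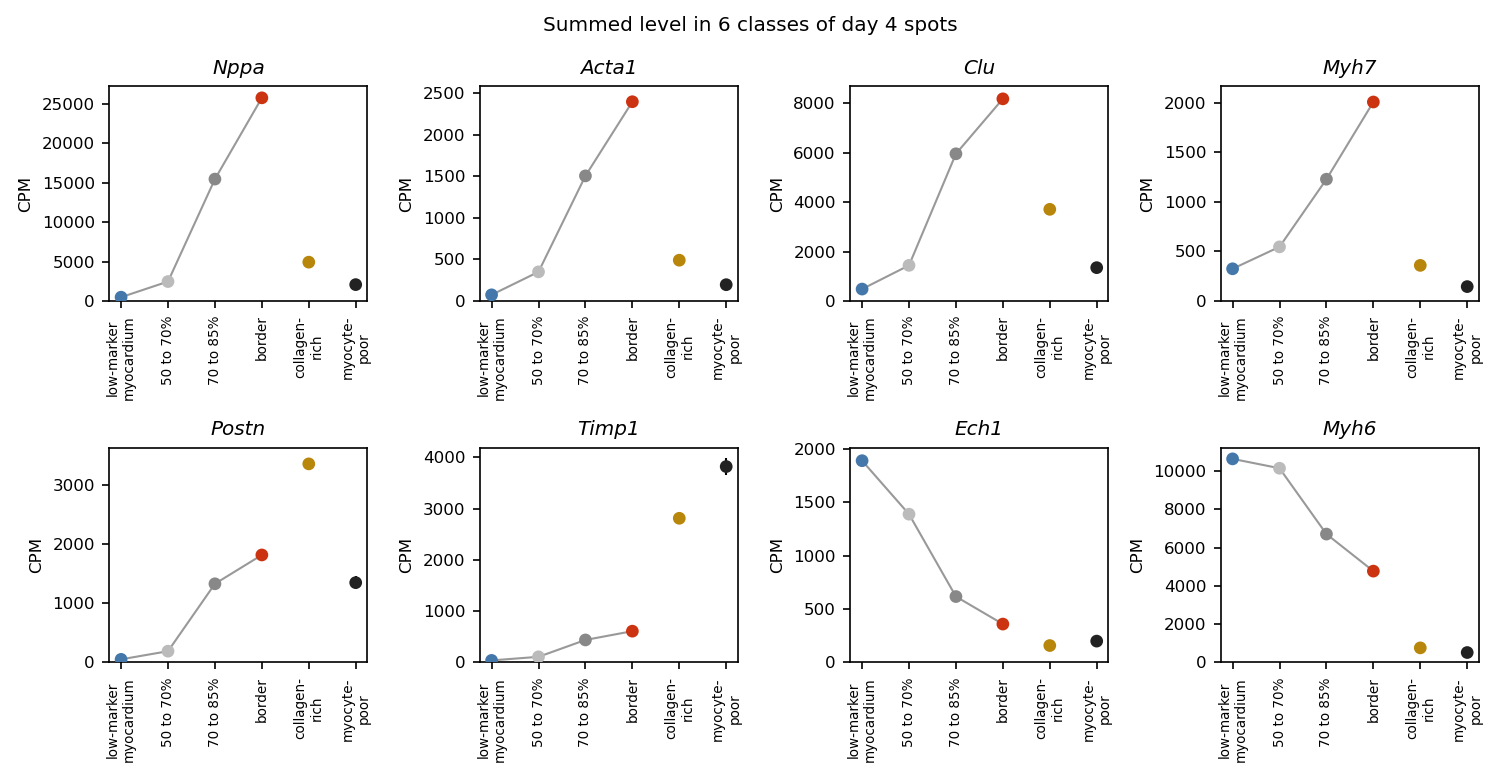
Level (CPM of summed UMIs, vertical axes from 0) of 8 genes in 6 classes of day 4 spots, with exact 95% Poisson intervals as vertical lines and a gray line joining the classes in order of marker rank. Nppa, Acta1, Clu and Myh7 peak in the border class, Postn peaks in collagen-rich spots and Timp1 in the myocyte-poor ones (3817 CPM, beside 2809 in collagen-rich spots), and Ech1 and Myh6 are lower at each step toward the border.

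Between the groups lay the spots ranked from 50% to 70% and from 70% to 85%, which no comparison used. Of the 24 genes with the highest and lowest ratios, 23 were in order of rank over the 4 classes, Col8a1 being the exception (45.3 CPM in low-marker spots and 39.1 in the next class), and all 24 were in order without the myocyte-poor spots. Nppa went from 599 through 2464 and 15458 to 25762 CPM, and Ech1 from 1763 through 1388 and 617 to 360. Of all 1959 genes called, 1036 (52.9%) were in order.

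Collagen also varied among the border spots themselves. The 73 border spots with the lowest collagen share had a median of 0.490% and the 73 with the highest 1.97%, at marker shares of 60.5 and 58.8 per 10000 and cardiomyocyte shares of 3.77% and 1.94%. Cilp (log2 ratio of high over low 2.91), Timp1 (3.0), Sprr1a (2.49), Postn (2.11) and Thbs4 (1.58) were higher where collagen was higher. Nppa (0.32), Myh7 (-0.01) and Pi16 (-0.01) differed little, and Acta1 (0.86) and Clu (0.65) lay between. Myh6 (-1.13) and Ech1 (-1.05) were lower. Low-marker myocardium had a median collagen share of 0.0770% and a median cardiomyocyte share of 6.30%. The 73 border spots with least collagen thus still held more collagen and less of the cardiomyocyte genes. Against low-marker myocardium, these 73 spots had Nppa at 5.6, Acta1 at 4.38, Clu at 3.73, Myh7 at 2.57, Postn at 3.76 and Myh6 at -0.58. Of 32 fatty acid genes 23 were lower in them (median -0.85), and the median was -1.58 in the 73 with most collagen. All tested genes had medians of 0.31 and 0.63 in these 2 comparisons, and their share called lower was not counted.

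Ranking only the 736 spots below the median collagen share gave another set of spots, because only 3 of its top 110 were border spots and their median marker share was 20.9 per 10000. There, 427 genes were higher (8.97%) and 100 lower (2.10%). Nppa (2.88), Acta1 (2.51), Pi16 (2.05) and Clu (1.63) were again among those higher, with 9 of the 12 highest genes past 1.5-fold. For 3 of these 9 the interval held 0, namely Cilp (2 and 2 UMIs, -1.98 to 5.59), Serpinb1a (-0.52 to 1.88) and Col8a1 (-0.23 to 1.39). None of the 12 lowest genes was past 1.5-fold, and Myh6 was at 0.01. Medians of the adult sarcomere, calcium and ion channel lists were above 0 in this set, at most 0.098, 0.11 and 0.038. They lay below the median of all genes there, 0.13.

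The same rule in the other sections chose 249 border spots from the day 1 section, 242 from that of day 7 and 269 from that of day 14. These groups were not alike. Border spots started at 118, 54.3 and 20.5 marker UMIs per 10000 on days 1, 7 and 14, beside 48.5 on day 4. Their median collagen share was 0.103%, 0.757% and 0.0875%, beside 1.10%. Their median cardiomyocyte share was 36.6%, 67.5% and 93.6% of the low-marker median, beside 40.6%. Ratios of different days thus do not compare like tissue. Of the 24 genes with the highest and lowest ratios on day 4, 22 were past 1.5-fold the same way on day 1 (background 38.6% higher and 17.1% lower), 22 on day 7 (24.3% and 3.95%) and 17 on day 14 (14.6% and 0.882%). Nppa was at 5.55, 4.81 and 4.74 on days 1, 7 and 14, and Postn at 3.15, 2.75 and 3.85. Myh7 was at 0.03 on day 1, 3.07 on day 7 and 2.06 on day 14, beside 2.69 on day 4. Ech1 was at -1.03, -1.26 and -0.59, each closer to 0 than on day 4. Acta1 was at 5.23 and 2.60 on days 1 and 14 but at -1.29 on day 7, where the myocyte-poor spots held skeletal muscle transcripts (Myh1 at 8684 CPM, Acta1 at 16748 CPM), and without them it was at 2.09. With 1 mouse per day, day and mouse cannot be told apart, and differences between days were not tested.

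**Figure D5:**
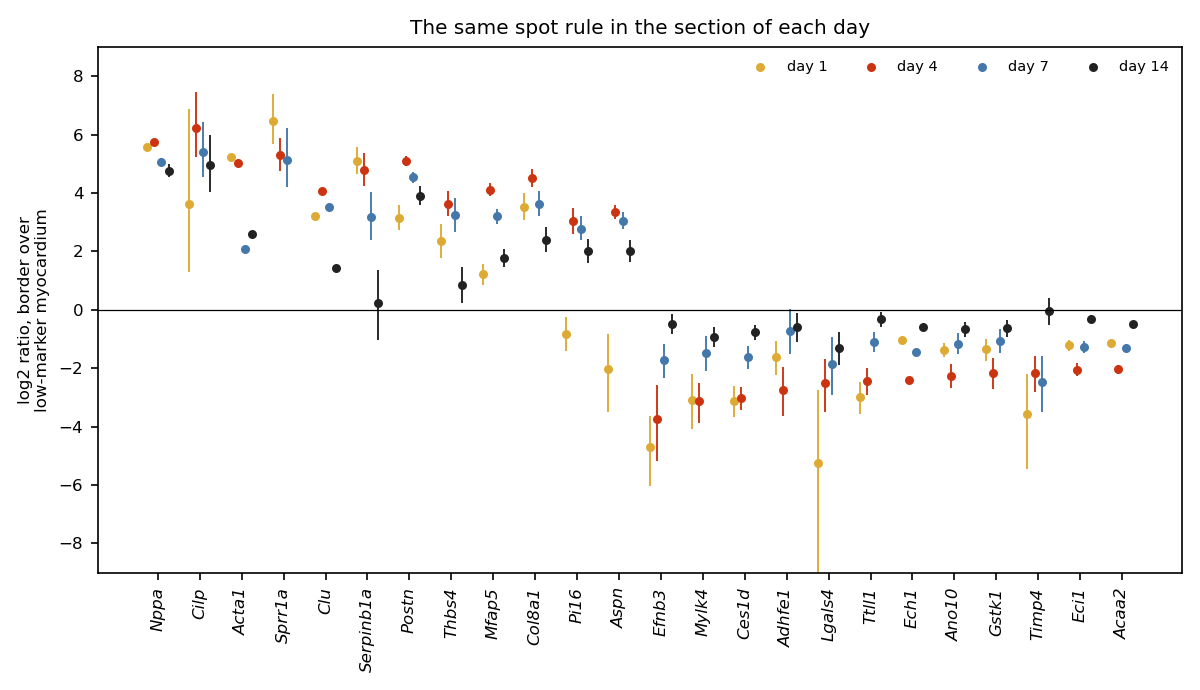
Log2 ratio of CPM, border over low-marker myocardium, of the 12 highest and 12 lowest day 4 genes in the section of each day, 1 point per day with its exact 95% interval (counting error only). Nppa is above 4 in every section, and Pi16 and Aspn lie below 0 on day 1.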

How the data were processed

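The deposited files hold UMI counts per gene and spot, which the authors made with Space Ranger (1.3.0 in the submitters' notes, build mm10) for spots under tissue, without normalization. Seurat 4.1.1 is also listed there, and the values are whole numbers. Groups of samples are the days in the labels, with 1 section per day. Groups of spots follow the rule given in the opening. The members and the gene lists were chosen with earlier results of these data known. UMIs were summed over spots, and ratios of CPM have exact conditional 95% intervals, written for Python 3.11.15 with numpy 2.4.6, scipy 1.17.1 and pandas 2.3.3 and tested on simulated data. No test was run, because each day has 1 mouse. A gene is called at 1.5-fold, with 2-fold as a second call. Genes were tested when they had at least 1000 UMIs over the hemoglobin-filtered spots of all sections.

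Named genes were the 12 highest and 12 lowest with at least 200 UMIs, up to 4 members of each list with the largest absolute ratio and at least 50 UMIs, the 7 border markers outside the rule, the 7 genes of the rule, and Timp1 and Lrp1. Other members of the 38 lists are named as examples or exceptions after their values had been seen. Genes were placed by GENCODE vM21 (GRCm38) and promoters taken from RefSeq. Alternatives changed the hemoglobin, UMI and collagen limits, the sizes of both groups, the ranking genes, the totals (edgeR 4.0.16 TMM, DESeq2 1.42.0 size factors), the depth and the gene minimum. Neither the positions of spots nor the images were used, and doublets are not defined for spots.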

Additional observations from a re-analysis of the deposited data

Results flagged for a closer look

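Some genes with values on day 4 differed in the opposite direction in another section under the same rule. The difference between days was not tested, as each day is 1 mouse, and intervals cover counting error only. On day 1, Pi16 had a log2 ratio of -0.81 and Aspn of -2.01 (6 and 74 UMIs), beside 2.82 and 2.79 on day 4. Also on day 1, the von Willebrand factor gene Vwf was at -0.74, the pericyte gene Rgs5 at -1.04 and the receptor Npr2 at -0.64, beside 1.32, 0.69 and 0.73 on day 4. The neutrophil gene S100a9 was at 4.32 on day 1 and 4.69 on day 14 (34 and 5 UMIs), against -0.64 on day 4, or 0.59 there without the myocyte-poor spots. The intervals of these day 4 values held 0 (-1.94 to 0.47, and -0.83 to 1.88). Car3, a gene of fat and muscle, was at 0.63 on day 1 and -2.10 on day 4, from 38 and 5 UMIs in the border spots. Acta1 was at -1.29 on day 7 and 4.85 on day 4, and without the myocyte-poor spots of day 7 it was at 2.09.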

How the results depend on the processing

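No paired analysis was possible because each day has 1 section of 1 mouse and the result comes from no test. The counts of genes called moved most in low-collagen spots, and also with the totals and the gene minimum. The 1592 higher genes became 884 without mitochondrially encoded genes in the totals, 478 with TMM and 471 with DESeq2 factors, 2466 with a minimum of 100 UMIs, 5264 with 10 UMIs, 616 at 2-fold and 427 among spots below the median collagen share. The 367 lower genes became 597, 1020 and 1034 under those scalings, 921 with 10 UMIs, 127 at 2-fold and 100 in low-collagen spots. Of the gene lists, 13 had a median at least 1.5-fold higher, which became 3 in low-collagen spots, 8 with a mean over spots and 4 with TMM or DESeq2 factors, and 4 had one lower, which became 0 in low-collagen spots and 8 with either factor. Of the 24 extreme genes, the 23 in rank order became 15 with the bottom 25% as remote and 8 in low-collagen spots. The 22 shared with day 7 became 7 in low-collagen spots. The 17 shared with day 14 became 8 in low-collagen spots and 11 with the top 25% by collagen left out, with Xirp2 and Nppb as ranking genes, or after thinning.

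The sign reversed in low-collagen spots, a set with 3 border spots, for Sprr1a (-0.37), Furin (-0.080), Corin (0.031), Npr2 (-0.72), Myl3 (0.022), Myh6 (0.011), Trdn (0.014), Kcnj3 (0.29), Dsg2 (0.20), Atf5 (-0.50), Psmd8 (-0.028), S100a9 (1.12), Car3 (1.00), Cfd (0.29) and Isg15 (-1.90). S100a9 also reversed to 0.48 with the top 25% by collagen left out and to 0.59 without the myocyte-poor spots. Its main ratio of -0.64 had an interval that held 0 (-1.94 to 0.47). The cause of the reversals was not tested. Of 136 named genes called, 32 kept their call in low-collagen spots, 110 and 111 with DESeq2 and TMM factors, and 117 to 136 under the other settings. Depth limits genes of few UMIs, such as Efnb3 with 6 in the border spots.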
